A study of Mus musculus with 15 samples.

Results

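The 9 genes described here make, oxidise, carry or take up retinoids in a mouse fat cell line: Rdh12, Rdh10, Rdh11, Aldh1a7, Aldh1a1, Retsat, Rbp4, Crabp2 and Stra6. They are 9 of the 25700 genes counted, and were found by matching Ensembl identifiers to mouse symbols. Rdh12 and Aldh1a7 were chosen because their levels changed clearly between these same groups, so their values are given as a description with no test. The other 7 were chosen by role with results of these data already known, so a test on them is not independent support for a pattern.

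RNA was sequenced from 3T3-L1, an established line of mouse preadipocytes that hormones turn into fat cells in culture. The cells were held at confluence for 48 h and then given dexamethasone, IBMX and insulin (day 0). From day 2 they received insulin alone, from day 4 plain serum medium, and they were harvested at day 6. The 5 groups, of 3 libraries each, were cells overexpressing MIGA2 fused to GFP at day 6 (MIGA2-GFP), cells depleted of MIGA2 at day 6 and at day 0 (MIGA2-KO), and wild-type cells (WT) at day 6 and at day 0. Mitoguardin 2, the MIGA2 protein, sits in the outer membrane of mitochondria. How MIGA2 was depleted, whether a line is 1 clone, what drives MIGA2-GFP and whether the cells that carry it still have their own MIGA2 is not stated in the labels. Nothing says that replicates came from separate cultures, so a p-value here measures the spread between samples, and that spread may be technical.

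Library totals ran from 10748668 to 26003871 counts, and WT day 0 was the deepest group. Levels are CPM, which are counts scaled to the TMM-adjusted library total, as mean ± SD of 3 libraries. Miga2 itself was at 165.6, 155.4 and 158.5 CPM in MIGA2-GFP, at 925.7, 74.48 and 70.02 CPM in MIGA2-KO at day 6, and at 145.2, 159.5 and 181.8 CPM in WT at day 6. At day 0 it was at 17.17, 21.41 and 22.55 CPM in MIGA2-KO and at 15.56, 17.75 and 13.63 CPM in WT, so Miga2 mRNA was not lower in the libraries labelled MIGA2-KO on that day. The library labelled MIGA2-KO day 6 replicate 1 goes against its label, and the MIGA2-GFP range of Miga2 lay inside that of WT. That library and the replicate 1 libraries of WT at day 0 and day 6 stood apart from their groups. Leaving out libraries that stand apart lowers the spread within groups, so a call gained without these 3 is not further support. For MIGA2-GFP against WT, the calls over all genes were 7625 without them, in place of 4338. Of 14 adipocyte markers, none was at 0 at day 6 and 4 were at 0 at day 0 in each line. Their summed level was 33104 to 35012 CPM in MIGA2-GFP, 10460 to 16915 CPM in MIGA2-KO and 47603 to 62711 CPM in WT at day 6, with the highest MIGA2-KO sum in the library labelled replicate 1. At day 0 the sum was 1183 to 1215 CPM in MIGA2-KO and 720.2 to 831.6 CPM in WT. Over all libraries the summed level of 7 macrophage markers was 23.42 to 122.7 CPM (Ptprc at 0), of 5 endothelial markers 0.4873 to 1.221 CPM (Tie1 at 0) and of 5 hepatocyte markers 0 to 5.848 CPM. That of 6 skeletal muscle markers at day 6 was 49.32 to 55.25 CPM in MIGA2-GFP, 15.65 to 67.67 CPM in MIGA2-KO and 22.24 to 36.98 CPM in WT, with Myod1 at 0. In MIGA2-KO day 6 replicate 3 the muscle genes Acta1, Ckm and Myh1 were at 22.64, 16.2 and 13.41 CPM, while in the other day 6 libraries Acta1 was at most 1.359 CPM, Ckm had 1 count and Myh1 none. The part of these RNAs in the results was not tested.

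Retinol, or vitamin A, circulates bound to RBP4, and STRA6 is the receptor that takes it into certain cells. Retinol dehydrogenases of the RDH family convert retinol and retinal into each other, and retinal dehydrogenases of the ALDH1A family oxidise retinal irreversibly to retinoic acid. CRABP2 carries retinoic acid to its nuclear receptors, the RARs, which bind DNA as pairs with RXRs. Fat tissue stores retinoids and secretes RBP4. Retinoic acid is known to block the differentiation of preadipocytes when given early.

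Rdh12 and Rdh11 lie side by side on chromosome 12, as do Aldh1a7 and Aldh1a1 on chromosome 19, so the sequences of each pair bear on whether reads could be counted for the wrong gene. The start of the coding sequence of the Aldh1a pair is shown because the genes are near copies. The capitals mark the 3 bases that differ within the first 60 coding bases, from GENCODE vM21 transcripts.
Aldh1a7: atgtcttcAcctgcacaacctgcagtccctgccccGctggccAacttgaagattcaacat
Aldh1a1: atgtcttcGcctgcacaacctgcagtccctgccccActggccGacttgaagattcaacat
Over the whole coding sequence 1377 of 1503 bases, or 91.6%, were identical. Of the 2017 windows of 50 bases in the Aldh1a7 transcript, 151 or 7.49% also occurred in Aldh1a1, as did 1 of 1967 windows of 100 bases. How the counting treated reads that align to both is not stated, so a part of the counts of either gene is uncertain. Rdh12 and Rdh11 matched at 653 of 945 aligned coding bases, or 69.1%, and shared none of the windows.

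Promoters are shown for the members that differed most over time. Each runs from 250 bases before to 50 after the start of transcription in RefSeq (GRCm38.p6), and 7 of the 9 members had an entry. Aldh1a1 has 2 entries, and the second is shown because it shares a run of bases with Aldh1a7. The first, at chr19:20492333-20492632 near the annotated start of the gene, holds a C/EBP core at -13 on the other strand and no other of the 4 motifs. Capitals mark matches on either strand to 4 motifs: the C/EBP core (TTGCNNAA), the CCAAT box, the TATA box (TATAAA) and the GC box (GGGCGG). C/EBP proteins are transcription factors of fat cell differentiation.
Rdh12, chr12:79208663-79208962, forward strand: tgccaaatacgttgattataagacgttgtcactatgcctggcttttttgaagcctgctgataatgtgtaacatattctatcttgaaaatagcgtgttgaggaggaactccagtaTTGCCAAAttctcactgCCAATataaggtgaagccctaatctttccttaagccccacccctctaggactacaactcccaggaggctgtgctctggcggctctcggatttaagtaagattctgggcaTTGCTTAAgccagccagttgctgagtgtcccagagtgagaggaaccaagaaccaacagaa
Aldh1a7, chr19:20727507-20727806, reverse strand: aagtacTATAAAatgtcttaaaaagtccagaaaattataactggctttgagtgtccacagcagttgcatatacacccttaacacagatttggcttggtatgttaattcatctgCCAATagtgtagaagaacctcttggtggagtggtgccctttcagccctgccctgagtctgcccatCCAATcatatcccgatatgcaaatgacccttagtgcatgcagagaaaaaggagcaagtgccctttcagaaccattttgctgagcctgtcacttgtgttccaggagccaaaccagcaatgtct
Aldh1a1, chr19:20601718-20602017, forward strand: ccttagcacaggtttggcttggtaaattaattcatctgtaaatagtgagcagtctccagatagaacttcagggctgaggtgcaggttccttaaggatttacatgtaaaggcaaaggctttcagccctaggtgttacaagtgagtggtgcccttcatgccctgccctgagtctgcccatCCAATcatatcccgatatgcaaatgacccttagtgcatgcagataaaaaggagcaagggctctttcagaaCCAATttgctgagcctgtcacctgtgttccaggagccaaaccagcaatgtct
Retsat, chr6:72598352-72598651, forward strand: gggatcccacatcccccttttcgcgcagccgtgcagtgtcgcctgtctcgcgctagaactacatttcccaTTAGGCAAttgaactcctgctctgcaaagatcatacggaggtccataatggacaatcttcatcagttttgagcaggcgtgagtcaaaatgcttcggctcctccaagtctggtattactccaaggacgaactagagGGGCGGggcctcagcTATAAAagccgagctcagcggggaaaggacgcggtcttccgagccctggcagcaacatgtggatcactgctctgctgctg
The C/EBP core matched at positions -136 and -10 of Rdh12 and at -180 of Retsat, and 10.8% of 32851 promoters hold it. Of the members not shown, Rbp4, with 0 counts in all libraries, holds it at -128 in its second entry. The nuclear receptor element AGGTCA was in none of these 4 windows, against 16.3% of all promoters, nor were direct repeats of it with 1 or 5 bases between the copies, which 0.0396% and 0.00913% of all promoters hold. Rdh11, also not shown, holds AGGTCA at -147 in its second entry. The Aldh1a7 and Aldh1a1 promoters were identical at 209 of 296 aligned bases, or 70.6%. The Aldh1a7 and Aldh1a1 promoters shared an unbroken run of 65 bases that starts at -94 in both.
Shared run: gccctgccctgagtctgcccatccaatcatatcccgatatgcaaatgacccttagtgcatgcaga

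At day 6 in WT, Aldh1a7 and Retsat were the most abundant members per length of exon, at 265 and 210 CPM per kb. Rdh12 was at 27, Rdh11 at 18.7, Aldh1a1 at 7.08, Rdh10 at 7.03 and Crabp2 at 0.452 CPM per kb. Crabp2, a carrier, was thus the lowest of these, while Fabp5, a carrier outside the members, was at 393 CPM per kb in WT at day 6. Rbp4 and Stra6 did not have enough counts to be tested. With these 2 left out, 7 of 9 members passed the filter on low counts, and tests were read for the 5 of them that had not been chosen for their changes.

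**Figure D1:**
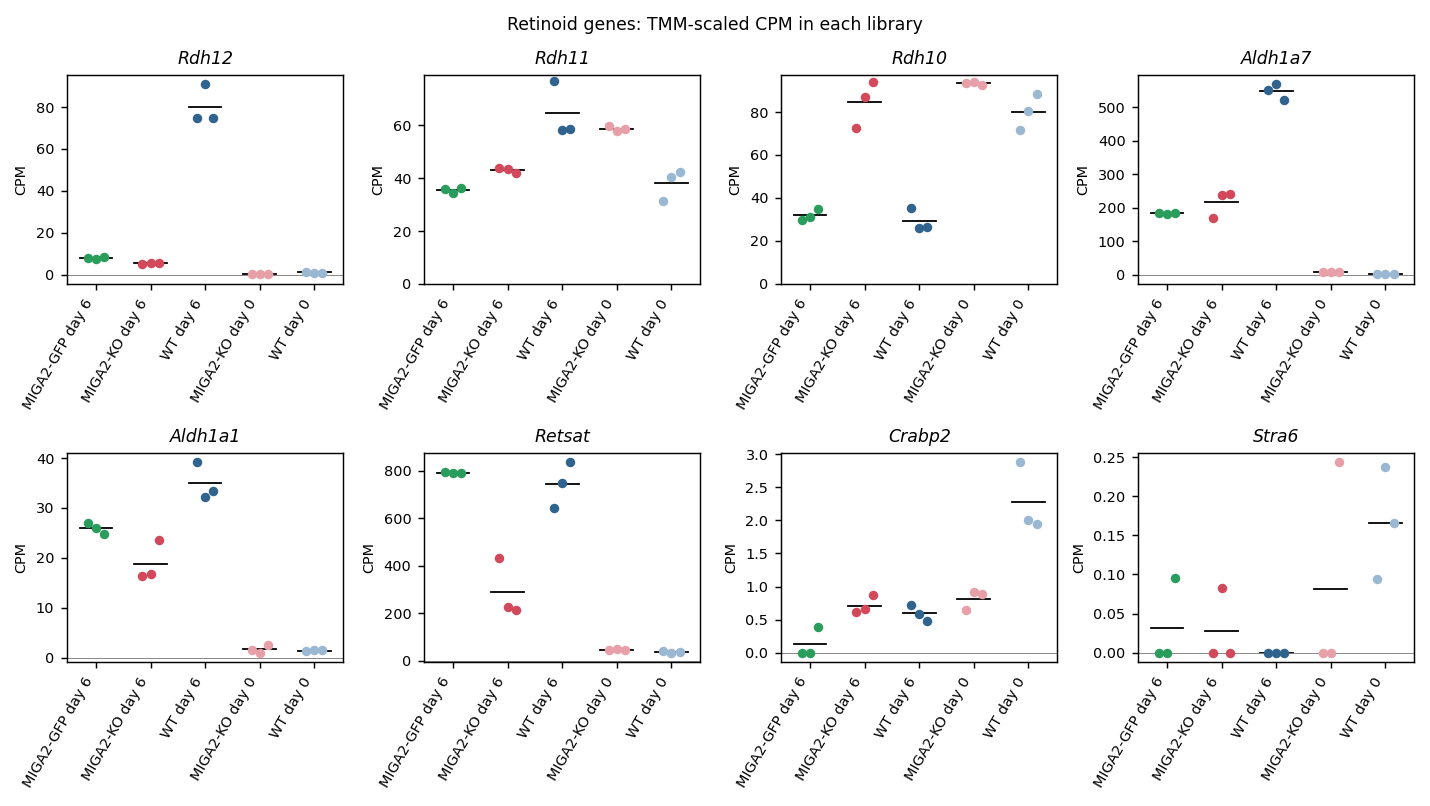
TMM-scaled CPM of 8 members in each of the 15 libraries, by group, on linear axes that differ between panels. Each point is a library and each line a group mean. Rdh12 stood at 74.6 to 91.04 CPM in WT at day 6 and at 8.283 CPM or lower in every other library. Rbp4, which had no counts, is not drawn.

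Rdh12, chosen for its clear change between these groups, is a retinol dehydrogenase known for reducing retinal in photoreceptors (ENSMUSG00000021123, GRCm38 chr12:79208914-79222665, forward strand). Its level was 8.027, 7.252 and 8.283 CPM in MIGA2-GFP, 5.216, 5.356 and 5.661 CPM in MIGA2-KO and 74.6, 91.04 and 74.84 CPM in WT at day 6. At day 0 it was 0.08025, 0.1529 and 0.4866 CPM in MIGA2-KO, from 9 counts in all, and 1.226, 0.8809 and 0.9528 CPM in WT. The ranges of all 5 groups were separate, and WT at day 6 stood far above the rest. Day 6 against day 0 gave a log2 fold change of 4.46 in MIGA2-KO and 6.30 in WT. At day 6, MIGA2-KO against WT gave -3.89 and MIGA2-GFP against WT gave -3.35, while MIGA2-GFP against MIGA2-KO gave 0.53. The MIGA2-KO level at day 0 rests on few counts: MIGA2-KO against WT at day 0 was -2.05 with all libraries and -3.01 without MIGA2-KO day 0 replicate 3. The 2 comparisons with WT at day 6 share the WT libraries.

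Rdh11, a retinal reductase of the endoplasmic reticulum next to Rdh12 (ENSMUSG00000066441, chr12:79174337-79192293, reverse strand), moved in opposite directions over time in the 2 lines. It was at 35.87, 34.5 and 36.37 CPM in MIGA2-GFP, at 43.82, 43.5 and 42.06 CPM in MIGA2-KO and at 76.95, 58.29 and 58.72 CPM in WT at day 6. Day 0 levels were 59.63, 57.81 and 58.47 CPM in MIGA2-KO and 31.5, 40.49 and 42.29 CPM in WT. Day 6 was thus above day 0 in every WT library and below it in every MIGA2-KO library. In edgeR's quasi-likelihood test, adjusted over 12279 genes, it fell in MIGA2-KO (log2 fold change -0.44 ± 0.13 SE, adjusted p = 0.0104) and rose in WT (0.76 ± 0.13, adjusted p = 8.4e-05). It was higher in MIGA2-KO than in WT at day 0 (0.62 ± 0.13, adjusted p = 0.00201, edgeR) and lower at day 6 (-0.58 ± 0.13, adjusted p = 0.00116, edgeR). With library totals in place of TMM the day 6 difference was -0.34 and did not pass (adjusted p = 0.056, edgeR). It was also lower in MIGA2-GFP than in WT (-0.86 ± 0.13, adjusted p = 0.000231, edgeR). MIGA2-GFP minus MIGA2-KO was -0.28 ± 0.13 and did not pass (adjusted p = 0.0859, edgeR), but -0.29 did without the 3 libraries that stood apart (adjusted p = 0.00149, edgeR).

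Rdh10 encodes the dehydrogenase that carries out most retinol oxidation to retinal in the mouse embryo (ENSMUSG00000025921, chr1:16105774-16133734, forward strand). It was at 29.63, 31.07 and 34.94 CPM in MIGA2-GFP, at 72.42, 86.92 and 94.05 CPM in MIGA2-KO and at 35.36, 25.93 and 26.5 CPM in WT at day 6. On day 0 the values were 93.41, 94.05 and 92.45 CPM in MIGA2-KO and 71.49, 80.6 and 88.19 CPM in WT. Only MIGA2-GFP and WT at day 6 were low, and their ranges overlapped, whereas MIGA2-KO at day 6 overlapped both day 0 groups. Over time the log2 fold change of -0.14 ± 0.13 in MIGA2-KO did not pass (adjusted p = 0.411, edgeR), and Rdh10 fell in WT (-1.45 ± 0.14, adjusted p = 3.01e-07, edgeR). At day 6 it was higher in MIGA2-KO than in WT (1.53 ± 0.14, adjusted p = 6.65e-07, edgeR) and lower in MIGA2-GFP than in MIGA2-KO (-1.41 ± 0.14, adjusted p = 2.72e-06, edgeR). The difference between MIGA2-GFP and WT was 0.12 ± 0.14 (adjusted p = 0.509, edgeR), and 0.27 without the 3 libraries that stood apart, which passed (adjusted p = 0.0123, edgeR).

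Aldh1a7, a close relative of Aldh1a1 in the mouse whose part in retinal oxidation is less clear (ENSMUSG00000024747, chr19:20692953-20727562, reverse strand), had the largest log2 fold change over time of the members, in WT. It was at 182.9, 180.7 and 185.7 CPM in MIGA2-GFP, at 168.7, 238.2 and 241.4 CPM in MIGA2-KO and at 553, 569.5 and 520.5 CPM in WT at day 6. In the day 0 libraries the levels were 7.303, 7.035 and 7.542 CPM in MIGA2-KO and 0.896, 1.355 and 1.45 CPM in WT. MIGA2-KO cells were thus above WT at day 0 and below WT at day 6, with separate ranges on both days, and MIGA2-GFP overlapped MIGA2-KO through the library labelled MIGA2-KO day 6 replicate 1 alone. MIGA2-GFP against MIGA2-KO gave -0.24, and -0.42 without that library. Day 6 against day 0 gave a log2 fold change of 4.89 in MIGA2-KO and 8.77 in WT. Set against WT, MIGA2-KO cells gave 2.54 at day 0 and -1.34 at day 6, and MIGA2-GFP against WT gave -1.58.

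Aldh1a1, a retinal dehydrogenase that makes retinoic acid (ENSMUSG00000053279, chr19:20492715-20643465, forward strand), rose in both lines. It was at 26.98, 25.95 and 24.85 CPM in MIGA2-GFP, at 16.35, 16.73 and 23.51 CPM in MIGA2-KO and at 39.15, 32.26 and 33.39 CPM in WT at day 6. At day 0 it was at 1.445, 0.994 and 2.595 CPM in MIGA2-KO and at 1.273, 1.491 and 1.491 CPM in WT. The 3 groups at day 6 had separate ranges and the 2 groups at day 0 overlapped. It rose in MIGA2-KO (log2 fold change 3.49 ± 0.25, adjusted p = 3.37e-08, edgeR) and in WT (4.61 ± 0.24, adjusted p = 4.31e-10, edgeR), and was lower in MIGA2-KO than in WT at day 6 (-0.89 ± 0.20, adjusted p = 0.00137, edgeR). The difference between MIGA2-GFP and WT was -0.43 ± 0.19 (adjusted p = 0.0981, edgeR), and -0.35 with adjusted p = 0.0449 without the 3 libraries that stood apart (edgeR). MIGA2-GFP minus MIGA2-KO was 0.46 ± 0.20 (adjusted p = 0.0675, edgeR), which passed in DESeq2 (adjusted p = 0.0379). The 3 other retinal dehydrogenases on the list, Aldh1a2, Aldh1a3 and Aldh8a1, had 0, 13 and 6 counts over the 15 libraries.

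Within the pairs, Aldh1a7 stood above Aldh1a1 per length in every group, by 16.9 ± 0.858 times in MIGA2-GFP, 27.7 ± 5.45 times in MIGA2-KO and 37.7 ± 4.24 times in WT at day 6. At day 0 the ratio was 12 ± 4.98 in MIGA2-KO and 2.06 ± 0.336 in WT. The length is that of all annotated exons, 4937 bases for Aldh1a1 and 2066 for Aldh1a7. Before division by length, mean Aldh1a7 in WT at day 0 was 1.234 CPM against 1.418 CPM for Aldh1a1, with overlapping ranges. The order of the pair in that group thus rests on the length used. Rdh12 over Rdh11 per length was 0.257 ± 0.0107 in MIGA2-GFP, 0.146 ± 0.00938 in MIGA2-KO and 1.48 ± 0.345 in WT at day 6, so that Rdh12 was the more abundant of that pair in WT at day 6 alone. At day 0 it was 0.00478 ± 0.00432 in MIGA2-KO and 0.0323 ± 0.0113 in WT. The pairs were set side by side because of their position, and Rdh12 and Aldh1a7 carry no test.

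**Figure D2:**
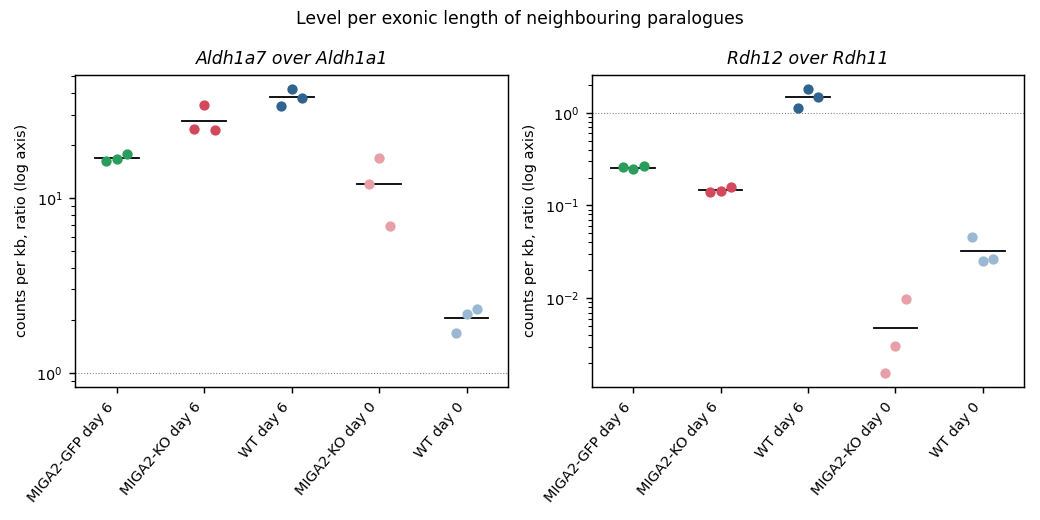
Ratio of counts per kb of exon between neighbouring genes in each library, Aldh1a7 over Aldh1a1 and Rdh12 over Rdh11, on log axes. Points are libraries, lines are group means, and the dotted line marks equal levels. The mean of Rdh12 over Rdh11 is above that line in WT at day 6, at 1.48, and in no other group.

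Retsat, which saturates a double bond of retinol and is a known target of PPARgamma in fat cells (ENSMUSG00000056666, chr6:72598475-72608425, forward strand), overlapped in MIGA2-GFP and WT at day 6, above MIGA2-KO. It was at 795.9, 791.3 and 790.6 CPM in MIGA2-GFP, at 430.6, 227.6 and 212.8 CPM in MIGA2-KO and at 645.1, 747.9 and 835.4 CPM in WT at day 6. At day 0 it was at 44.86, 47.41 and 46.06 CPM in MIGA2-KO and at 40.98, 33.98 and 37.16 CPM in WT. The high MIGA2-KO value is that of the library labelled replicate 1, the one with high Miga2. Retsat rose in MIGA2-KO (log2 fold change 2.65 ± 0.22, adjusted p = 1.48e-07, edgeR) and in WT (4.31 ± 0.23, adjusted p = 6.34e-10, edgeR). At day 6 it was lower in MIGA2-KO than in WT (-1.36 ± 0.20, adjusted p = 6.91e-05, edgeR) and the value was -1.75 when the MIGA2-KO library labelled replicate 1 was left out. MIGA2-GFP was above MIGA2-KO (1.45 ± 0.21, adjusted p = 6.17e-05, edgeR), while it differed from WT by 0.09 ± 0.20 (adjusted p = 0.739, edgeR). MIGA2-KO against WT at day 0 gave 0.30 ± 0.21 and did not pass (adjusted p = 0.273, edgeR), but 0.38 did without the 3 libraries that stood apart (adjusted p = 0.000128, edgeR). An opposite-strand gene, Gm45053, covers 18.4% of its exons and had 34 counts in all libraries together.

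Of the binding and uptake genes, Crabp2, the carrier of retinoic acid to its receptors (ENSMUSG00000004885, chr3:87948666-87953376, forward strand), passed the filter at low levels. The cutoff of 0.823 CPM was reached in 3 libraries of WT at day 0, and in 2 of MIGA2-KO at day 0 and 1 at day 6. No WT or MIGA2-GFP library at day 6 reached it. Only WT at day 0 had all its libraries over the cutoff, so falls from that group are not fully separate from the filter. Crabp2 was at 0, 0 and 0.3808 CPM in MIGA2-GFP, at 0.6086, 0.6591 and 0.8709 CPM in MIGA2-KO and at 0.7234, 0.5848 and 0.4853 CPM in WT at day 6. At day 0 it was at 0.642, 0.9176 and 0.8921 CPM in MIGA2-KO and at 2.877, 1.999 and 1.947 CPM in WT. WT at day 0 was thus above all other groups and MIGA2-GFP, with 4 counts in all, below them. Over time it changed by -0.20 ± 0.49 on the log2 scale in MIGA2-KO, which did not pass (adjusted p = 0.784, edgeR), and fell in WT (-1.90 ± 0.44, adjusted p = 0.0015, edgeR). It was lower in MIGA2-KO than in WT at day 0 (-1.46 ± 0.40, adjusted p = 0.0127, edgeR). Without MIGA2-KO day 0 replicate 1 the day 0 difference did not pass (adjusted p = 0.0648, edgeR). It was lower in MIGA2-GFP than in MIGA2-KO (-2.55 ± 0.73, adjusted p = 0.00967, edgeR). It was also lower in MIGA2-GFP than in WT (-2.31 ± 0.76, adjusted p = 0.0293, edgeR), a call lost without WT day 6 replicate 1 or 2 or MIGA2-GFP replicate 1 or 2, at adjusted p = 0.0583, 0.0642, 0.0971 and 0.105 (edgeR).

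Rbp4, the plasma carrier of retinol (ENSMUSG00000024990, chr19:38116629-38125281, reverse strand), had 0 counts in all 15 libraries. Neither the annotation nor the treatment of multimapping reads is stated, so a lack of mRNA and a gene left out by the counting cannot be told apart. A count of 0 allows up to 3 counts a group, which is 0.085 CPM in MIGA2-GFP, 0.0854 CPM in MIGA2-KO and 0.0949 CPM in WT at day 6, and 0.0792 CPM in MIGA2-KO and 0.0401 CPM in WT at day 0. Stra6, the RBP4 receptor (ENSMUSG00000032327, chr9:58063788-58153996, forward strand), had 18 counts in all. At day 6 it had 1 in MIGA2-GFP, 1 in MIGA2-KO and 0 in WT, and at day 0 it had 3 in MIGA2-KO and 13 in WT. In WT it was at least 1.83-fold lower at day 6 than at day 0, with WT at day 6 set to the limit of 3 counts for the group. These limits cover counting error only.

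Over the comparisons, the 5 tested members went as follows. From day 0 to day 6 in MIGA2-KO 2 rose and 1 fell, where 23.3% of all genes tested rose and 21% fell. In WT 3 rose and 2 fell, where 31.7% of all genes rose and 33.1% fell. In MIGA2-KO at day 0, 1 was higher and 1 lower than in WT, beside 16.1% and 17.7% of all genes. At day 6, 1 was higher and 3 were lower, beside 29.2% and 31.5%. MIGA2-GFP had none higher and 2 lower than WT, beside 16.5% and 18.9% of all genes, and 1 higher and 2 lower than MIGA2-KO, beside 25.4% and 22.5%. With shares of all genes this high, the number of members called is not in itself a result about them. The median log2 fold change of the 5 over time was -0.14 in MIGA2-KO and 0.76 in WT, beside 0.02 and -0.04 over all genes. For MIGA2-KO against WT it was 0.23 at day 0 and -0.58 at day 6, beside -0.03 and -0.01. MIGA2-GFP gave -0.43 against WT and -0.28 against MIGA2-KO, beside 0.00 and 0.01. A median of 5 is the value of 1 member, here Rdh11 for -0.58 and Aldh1a1, which did not pass, for -0.43. Rdh10 went the other way in MIGA2-KO against WT at day 6.

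**Figure D3:**
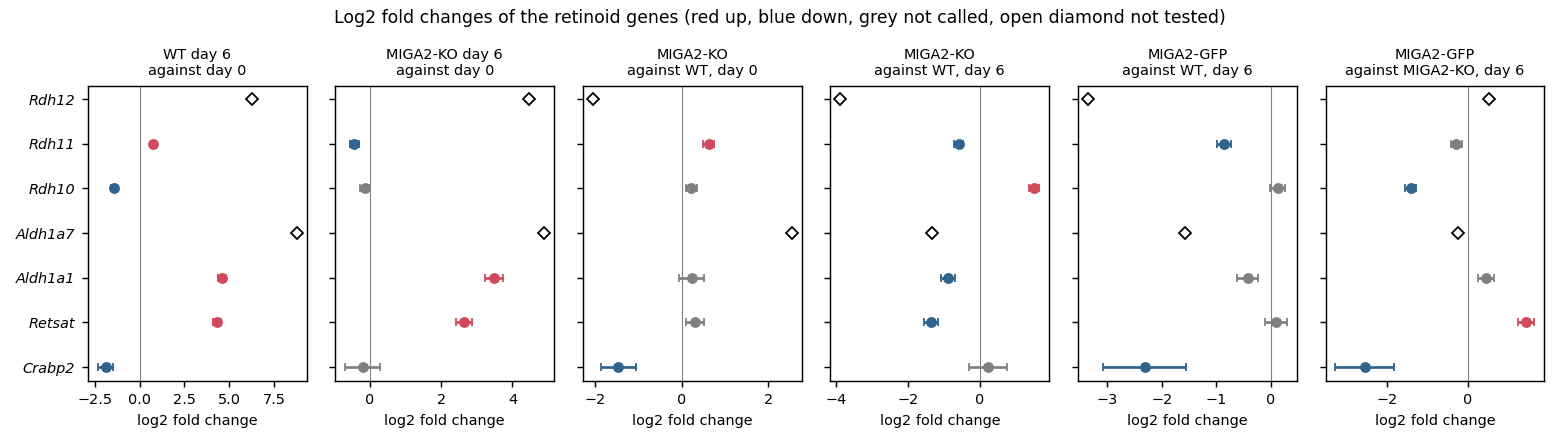
Log2 fold changes of the 7 members that passed the filter, in 6 comparisons, each panel with its own axis. Bars are the SE from the edgeR quasi-likelihood test. Open diamonds are Rdh12 and Aldh1a7, which were chosen for their changes and carry no test. Rdh10 is the tested member that is higher in MIGA2-KO than in WT at day 6, at 1.53.

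The change over time itself differed between the lines for 4 of the 5, with 1 higher and 3 lower in MIGA2-KO, where 13.7% of all genes tested were higher and 13.6% lower. MIGA2-KO minus WT was 1.31 ± 0.19 for Rdh10 (adjusted p = 0.00017, edgeR), -1.21 ± 0.18 for Rdh11 (adjusted p = 0.000198, edgeR) and -1.66 ± 0.29 for Retsat (adjusted p = 0.000781, edgeR). For Aldh1a1 it was -1.12 ± 0.35 (adjusted p = 0.0276, edgeR), but -0.66 without MIGA2-KO day 0 replicate 3 (adjusted p = 0.151, edgeR), and it did not pass without MIGA2-KO day 6 replicate 2 either (adjusted p = 0.0596, edgeR). Nor did it pass with library totals in place of TMM (-0.75, adjusted p = 0.111, edgeR) or with the compared groups alone (-1.12, adjusted p = 0.0531, edgeR). For Crabp2 it was 1.70 ± 0.67 and did not pass (adjusted p = 0.0737, edgeR), though 1.78 did without the 3 libraries that stood apart (adjusted p = 0.0476, edgeR). Of the adipocyte markers, 14 of 14 were lower in MIGA2-KO than in WT at day 6. Lep, 1 of the 14, had 128 counts in WT and 12 in MIGA2-KO on that day. It passed the filter through WT at day 6 alone, so its lower level is tied to the filter. The tested members Rdh11, Aldh1a1 and Retsat were also lower in MIGA2-KO than in WT at day 6, and Rdh10 was higher. Of all genes, 31.5% were lower and 29.2% higher in that comparison. Of 9 preadipocyte and fibroblast markers, 4 were higher and 1, Dlk1, was lower in MIGA2-KO than in WT at day 6, and 4 did not pass. Their summed level was 7776 to 8128 CPM in MIGA2-GFP, 13129 to 21485 CPM in MIGA2-KO and 8143 to 8333 CPM in WT, with none at 0. Most of that sum came from the collagens, with Col1a1 at 3598, 7690 and 6942 CPM in MIGA2-KO and 1405, 1485 and 1670 CPM in WT, and Col3a1 at 6441, 9928 and 9671 CPM in MIGA2-KO and 3602, 3051 and 3056 CPM in WT. The part of either list in these results was not tested. In bulk RNA, fewer fat cells and less RNA per fat cell cannot be told apart.

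Of 46 other genes of the pathway, 25 had enough counts to be tested. In MIGA2-KO 15 of them rose and 2 fell over time, where 23.3% of all genes rose and 21% fell, with a median log2 fold change of 1.34 beside 0.02 over all genes. In WT 19 rose and 3 fell, where 31.7% of all genes rose and 33.1% fell (median 1.25, beside -0.04). At day 6, 14 were lower and 3 higher in MIGA2-KO than in WT, where 31.5% of all genes were lower and 29.2% higher (median -0.81, beside -0.01). There were 8 lower and 3 higher in MIGA2-GFP than in WT, where 18.9% of all genes were lower and 16.5% higher (median -0.24, beside 0.00). MIGA2-GFP against MIGA2-KO had 14 higher and 4 lower, beside 25.4% and 22.5% of all genes (median 0.58, beside 0.01). At day 0, 5 were higher and 2 lower in MIGA2-KO than in WT, beside 16.1% and 17.7% of all genes (median -0.03, beside -0.03). With genes of 3 or fewer counts in a group set to their ratio or bound, the day 0 median was -0.01 and the others were as given. Rdh1, Rdh9, Rdh16, Bco1 and Rxrg were under the filter's cutoff of 0.823 CPM in every day 0 library. They passed through day 6 libraries alone, so the filter favoured their rise over time. Rdh1, Rdh9 and Rdh16 were also under it in every MIGA2-KO library at day 6, so their lower level there is tied to the filter too.

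**Figure D4:**
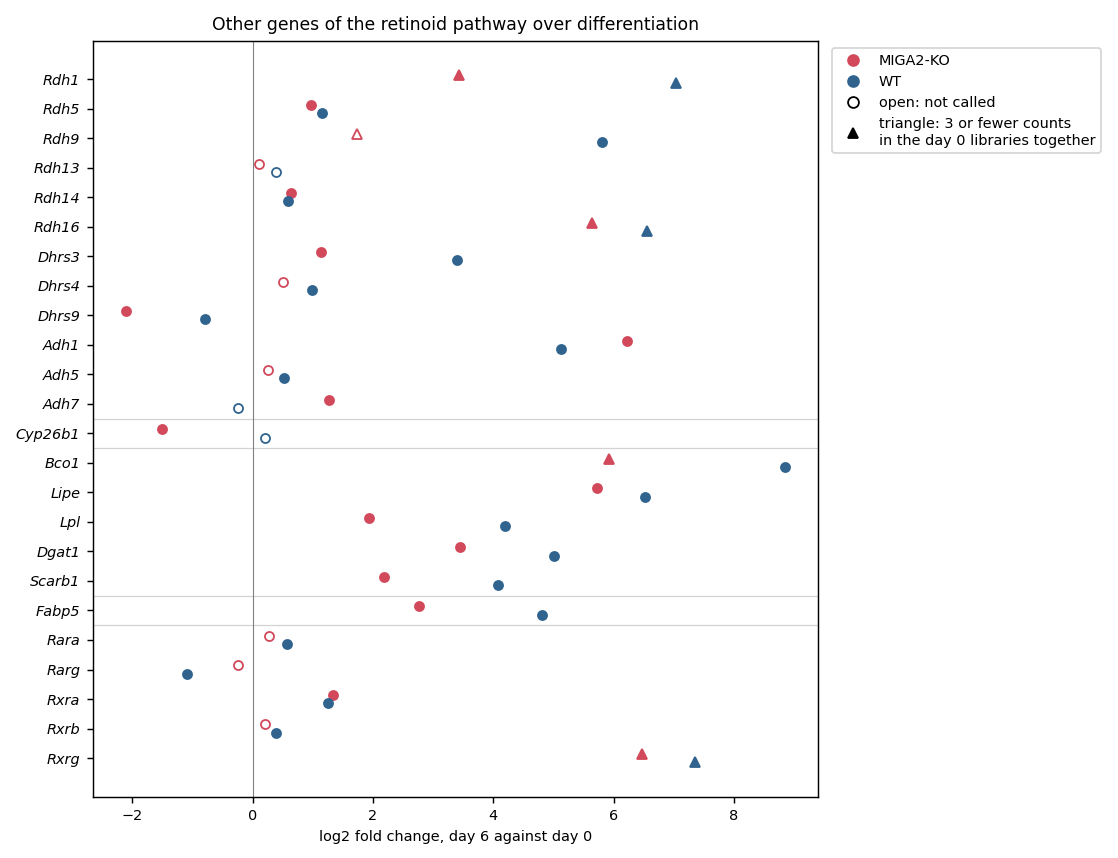
Log2 fold change from day 0 to day 6 of other retinoid pathway genes tested, in MIGA2-KO and in WT. Filled symbols passed in edgeR and open ones did not; triangles mark 3 or fewer counts at day 0, where the fitted value depends on the prior count. The largest value drawn is that of Bco1 in WT, at 8.85.

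Among the oxidoreductases of the list, 7 of 12 tested rose and 1 fell in MIGA2-KO, where 23.3% of all genes rose and 21% fell. In WT 9 rose and 1 fell, where 31.7% of all genes rose and 33.1% fell. Rdh1, Rdh9 and Rdh16, which passed the filter through day 6 libraries alone, are among those tested. Dhrs3, which reduces retinal back to retinol, was at 122.6 ± 2.56 CPM in MIGA2-GFP, 34.97 ± 5.7 CPM in MIGA2-KO and 202.6 ± 40.9 CPM in WT at day 6 (SD, n = 3 each). It was lower in MIGA2-KO than in WT (log2 fold change -2.53 ± 0.19, adjusted p = 1.12e-07, edgeR) and lower in MIGA2-GFP than in WT (-0.72 ± 0.18, adjusted p = 0.00659, edgeR). Adh7, an alcohol dehydrogenase that can oxidise retinol, shared the direction of Rdh10, being higher in MIGA2-KO than in WT at day 6 (79.52 ± 16.5 against 33.47 ± 7.34 CPM, 1.25 ± 0.18, adjusted p = 4.98e-05, edgeR). Rdh1 and Rdh9, close copies of each other whose counts may be split between them, were lower in MIGA2-KO than in WT at day 6, at 0.374 against 4.616 CPM and at 0.2807 against 3.429 CPM.

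All 5 tested enzymes of retinyl esters and carotenoids rose in both lines, where 23.3% of all genes rose in MIGA2-KO and 31.7% in WT. Bco1, 1 of the 5, passed the filter through day 6 libraries alone, so the filter favoured its rise. At day 6 all 5 were lower in MIGA2-KO than in WT, as were 31.5% of all genes. Of the 5, Lipe and Lpl are also among the 14 adipocyte markers. Bco1, which cleaves beta-carotene to retinal, was at 28.86, 27.86 and 27.23 CPM in MIGA2-GFP, 4.608, 0.9887 and 0.7838 CPM in MIGA2-KO and 80.66, 99.71 and 71.25 CPM in WT at day 6. The highest MIGA2-KO value of Bco1 is that of the library labelled replicate 1. MIGA2-KO against WT gave -5.30 ± 0.45 (adjusted p = 3.74e-07, edgeR), and -6.54 without that library (adjusted p = 1.62e-08, edgeR). Lipe, Lpl, Dgat1 and Scarb1 act on triacylglycerol or lipoproteins as well as on retinoids, and were -0.81, -1.55, -1.27 and -1.08 in MIGA2-KO against WT (log2 fold change, day 6). Of the carriers, Fabp5, a fatty acid binding protein that also binds retinoic acid, was at 631.8 ± 17.8 CPM in MIGA2-GFP, 320.9 ± 23.9 CPM in MIGA2-KO and 1401 ± 156 CPM in WT at day 6. Cyp26b1, which breaks down retinoic acid, was higher in MIGA2-KO than in WT at day 0, at 36.31 ± 0.529 against 12.35 ± 3.75 CPM (1.55 ± 0.19, adjusted p = 5.76e-05, edgeR).

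Of the receptors, 2 of 5 tested rose in MIGA2-KO, where 23.3% of all genes rose. In WT 4 rose and 1 fell, where 31.7% of all genes rose and 33.1% fell. Rxrg, which passed the filter through day 6 libraries alone, is among those tested, so the filter favoured its rise. Rxra, the common partner receptor, rose in MIGA2-KO (log2 fold change 1.34 ± 0.14, adjusted p = 2.46e-06, edgeR) and in WT (1.25 ± 0.14, adjusted p = 2.26e-06, edgeR). Rarg, a retinoic acid receptor, fell in WT (-1.09 ± 0.14, adjusted p = 1.04e-05, edgeR), and was higher in MIGA2-KO than in WT at day 6, at 93.14 ± 15.4 against 51.41 ± 8.47 CPM. Of 8 tested textbook response genes of retinoic acid, 4 were lower and none higher in MIGA2-KO than in WT at day 6, and 2 were higher and 1 lower in MIGA2-GFP than in WT, beside the shares of all genes given above. Dhrs3 and Cyp26b1 of that list are also among the pathway genes. In the same list Tgm2, a transglutaminase, was at 17.42, 16.87 and 18.66 CPM in MIGA2-GFP, 2.26, 0.5767 and 0.5225 CPM in MIGA2-KO and 5.154, 5.166 and 3.203 CPM in WT at day 6. MIGA2-KO against WT gave -2.01 for Tgm2 (adjusted p = 0.00109, edgeR), and -3.01 without the library labelled replicate 1, which had the highest MIGA2-KO value (adjusted p = 3.16e-05, edgeR).

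Across the 15 libraries, the log2 CPM of Aldh1a1 correlated with that of Aldh1a7 at Pearson's r = 0.96 and with that of Retsat at 0.96, and Rdh12 with Aldh1a1 at 0.89. Rdh10 ran the other way from Retsat, at -0.84, and Rdh11 lay between -0.03 and 0.22 with the other members. The libraries share groups and depth, so these values describe the pattern and carry no p. Among all genes tested, the closest in pattern to Rdh12 were Slc25a5, Fh1 and Dusp14 (0.9860, 0.9838 and 0.9826). Those closest to Aldh1a7 were Cluh, Pparg and Cs (0.9942, 0.9919 and 0.9909), and to Aldh1a1 A530016L24Rik, Adipoq and Glul (0.9919, 0.9915 and 0.9905). Retsat was closest to Gpat3, Slc2a4 and Aatk (0.9968, 0.9962 and 0.9958), and Rdh10 to Msantd4, Timp2 and Dazap2 (0.9908, 0.9907 and 0.9867). Rdh11 and Crabp2 had no partner as close: their highest values were 0.9283 with Synj2bp and 0.9281 with Inip.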

How the data were processed

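RNA of 15 libraries was made into stranded TruSeq libraries (per the labels). The tools, per the submitters' processing notes, were bcl2fastq 2.19, Trimmomatic, STAR 2.5.4b, featureCounts and edgeR, with genome build GRCm38.p5. The authors deposited raw counts, with a column of whole numbers per gene for each library. For counting, the annotation release, the strand setting and the multimapping rule were not stated. Of the 25700 identifiers, 25587 matched GENCODE vM21.

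In R 4.3.3 with edgeR 4.0.16, filterByExpr (minimum count 10, minimum total 15) kept 12279 genes. All 15 libraries entered a quasi-likelihood fit of group means with TMM scaling. Tests were two-sided, with Benjamini-Hochberg adjustment over all genes tested and a threshold of 0.05. Each SE was taken from the F statistic, as the size of the log2 fold change over the root of F. The procedure was tested on simulated data of MIGA2-KO against WT at day 6. Few genes were altered there, equally up and down, so that test does not bear on the choice of scaling. Replicate numbers did not pair the samples (same-number deviations correlated at -0.723 to 0.125). The alternatives were other scalings, no filter, DESeq2 1.42.0, the compared groups alone, a replicate block and libraries left out. The members and gene lists were chosen with earlier results of these data known. Pathway genes named are at most 4 per list and comparison, those with the smallest adjusted p, and the genes most alike in pattern are the 3 with the highest Pearson correlation. Intervals and floors cover counting error only. The values of 1 pathway gene, which is included in the counts of genes called, are not reported here.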

Additional observations from a re-analysis of the deposited data

Results flagged for a closer look

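The change from day 0 to day 6 differed between MIGA2-KO and WT, by the test of that difference in edgeR, for 4 members. Of all genes tested, 13.7% were higher and 13.6% lower in MIGA2-KO by that test. As log2 differences, MIGA2-KO minus WT, the values of the members were 1.31 for Rdh10, -1.21 for Rdh11, -1.12 for Aldh1a1 and -1.66 for Retsat. Aldh1a1 no longer passed without MIGA2-KO day 0 replicate 3 (-0.66, adjusted p = 0.151, edgeR). It also did not pass without MIGA2-KO day 6 replicate 2, with library totals in place of TMM or with the compared groups alone. The same test passed for other pathway and response genes, at -2.26 for Dhrs3, -1.32 for Dhrs9, 1.09 for Adh1, 1.52 for Adh7 and -1.72 for Cyp26b1. It was -0.80 for Lipe, -2.25 for Lpl, -1.56 for Dgat1, -1.89 for Scarb1 and -2.04 for Fabp5. It was 0.85 for Rarg, -0.68 for Nrip1 and -1.10 for Zfp423. Lipe and Nrip1 no longer passed when replicate 1 of MIGA2-KO at day 6 was left out, at -0.72 and -0.62 (adjusted p = 0.0743 and 0.073, edgeR).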

How the results depend on the processing

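The direction turned in 3 values, none of them past the threshold: Aldh1a1 in MIGA2-KO against WT at day 0, at -0.22 without MIGA2-KO day 0 replicate 3 in place of 0.23 (up to 0.51 without another library), and Retsat in MIGA2-GFP against WT, at -0.01 without the 3 libraries that stood apart and -0.02 without WT day 6 replicate 1, in place of 0.09 (up to 0.17). Of the other values of tested members under all alternatives, 735 kept their direction and their side of the threshold, 19 passed newly and 10 no longer passed. Of the untested values of Rdh12 and Aldh1a7, 301 moved by less than the replicate SD and 7 by more. Without the replicate 1 libraries of MIGA2-KO day 6, WT day 6 and WT day 0, MIGA2-GFP against WT had 4 members called in place of 2. With 1 library left out at a time, members called ranged from 1 to 3 for MIGA2-KO against WT at day 0, 1 to 3 for MIGA2-GFP against WT, 3 to 5 for MIGA2-GFP against MIGA2-KO and 3 to 5 for the difference in change over time. Calls over all genes in these fits ranged from 2809 to 4801, 2759 to 5438, 4648 to 6753 and 2541 to 5186, in that order. Each fit tested 12417 to 12479 genes. The number of members called is thus not in itself a result about them. Pathway genes called ranged from 7 to 13 for MIGA2-GFP against WT, the 7 without MIGA2-GFP replicate 3, in place of 11. Over all genes, the calls were 7625 in place of 4338 for MIGA2-GFP against WT and 7655 in place of 3346 for the difference in change over time without the 3 libraries. They were 2759 for MIGA2-GFP against WT without WT day 6 replicate 2, and 5186 for the difference in change over time without WT day 0 replicate 1. The cause was not tested.

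With library totals in place of TMM, the median log2 fold change of all genes and the share of calls that were higher both moved. They were -0.43 and 29.6% (in place of 48.9%) for WT over time, -0.15 and 28.1% (47.6%) for MIGA2-KO against WT at day 0, and 0.24 and 63.6% (48.1%) at day 6. For MIGA2-GFP against WT they were 0.18 and 69.6% (46.6%), and for the difference in change over time 0.39 and 82.6% (50.1%). The replicate block changed no call of a tested member, and Crabp2 in MIGA2-GFP against WT had adjusted p = 0.0491 with it (edgeR). No pairing by replicate number is stated in the labels. Depth limits Crabp2, Stra6 and Rbp4, and Rdh12 in MIGA2-KO at day 0.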
